A study of Mus musculus with 8 samples.

Results

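The genes described here carry glucose into the cell, break it down through glycolysis, divert it into the pentose phosphate pathway, or respond to low oxygen. The set is a list of gene names, 34 of the 41388 gene identifiers in the count tables, and was drawn up with earlier results of these data known. All 34 matched exactly 1 identifier, and all 34 had enough counts to be among the 12002 genes tested. They cover glucose transport (2 genes), hexokinases (3), the upper glycolytic steps (6), the PFKFB enzymes that set the flux through phosphofructokinase (2), the lower glycolytic steps (5), lactate formation and transport (4), pyruvate dehydrogenase kinases (2), the hypoxia response (4) and the pentose phosphate pathway (6).

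Glycolysis turns glucose into pyruvate, which is either passed to the mitochondria or reduced to lactate and exported. The pentose phosphate pathway branches off after the hexokinase step and supplies NADPH, which feeds both antioxidant defence and the NADPH oxidase of phagocytes, and ribose for nucleotides. In low oxygen the transcription factor subunit HIF-1α, encoded by Hif1a, escapes hydroxylation by the Egln prolyl hydroxylases and raises the transcription of many glycolytic genes, and activated macrophages and microglia are known to lean on glycolysis.

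Microglia, the resident macrophages of the brain and spinal cord, were isolated from adult C57BL/6 mice with antibodies to CD11b, CD45 and CD11c, and their total RNA was sequenced. The 8 libraries form 3 groups: CD11c+ microglia of mice with neuromyelitis optica (NMO, in which inflammation damages optic nerve and spinal cord; n = 2), the CD11c- fraction from mice with NMO (n = 3) and microglia of control mice (n = 3). The labels give no treatment, sex or exact age, nor how NMO was brought about, and no CD11c+ control group is among the libraries. The control cells are called CD11c negative in one label and total microglia of unmanipulated mice in their titles. Nothing says that the libraries came from separate mice, so the p-values measure the spread between these libraries, which may be technical.

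The libraries held 4943207 to 9246061 counts, of which the 34 genes took 0.319% to 0.429%. All 10 microglial markers examined, P2ry12, Tmem119 and Cx3cr1 among them, were counted in every library, and their summed level was 32732 and 34482 CPM in CD11c+ cells, 34203 to 42389 CPM in the CD11c- cells of NMO mice and 42003 to 46302 CPM in control cells (CPM being counts brought to the same total in every library after TMM scaling). Against control, 4 of the 10 were called lower in CD11c+ cells, with a median log2 difference of -0.51, and 0 in the CD11c- cells of NMO mice (edgeR, 3 at an unadjusted p under 0.05), with a median of -0.21. Their part in the results below was not tested. CD11c+ replicate 1 stood apart in base composition: across genes, its deviation from the mean of the libraries had a Spearman correlation of 0.592 with transcript GC content, against -0.299 to -0.0378 in the other 7. The 34 genes had a median GC content of 52.7%, against 49.6% for all tested genes. Among the 34, the log2 ratio of CD11c+ replicate 1 to replicate 2 had a Spearman correlation of 0.602 with GC content, a description over genes that share the same libraries. The 11 neutrophil markers, which include S100a8, S100a9, Ly6g and Ngp, summed to 17.2 and 21.8 CPM in CD11c+ cells, 2226 to 11532 CPM in the CD11c- cells of NMO mice and 924 to 1908 CPM in control cells. Ly6g was at 0 counts in both CD11c+ libraries. Values without CD11c+ replicate 1 are given below where they differ most. With either CD11c+ library left out, that arm holds 1 library, which is assumed to vary like the other groups, so such p-values carry no replicate check of their own.

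Per unit of summed exon length, Ldhb, Aldoa, Hk2 and Hk3 were the most abundant of the set in control microglia. Levels between genes are given as TPM (counts divided by the length of the gene's exons, then brought to the same total in every library). That length can exceed the longest transcript, with 2911 against 1549 bases for Aldoa and 5001 against 2432 for Pkm. For Hk2 the lengths were 5969 and 5513 bases, and for Ldhb 1570 and 1304. The order of genes given here therefore holds for the exon length only. Ldhb, a lactate dehydrogenase subunit, led with 428 ± 43.1 TPM (SD, n = 3 for each control value here), followed by the aldolase Aldoa at 292 ± 8.00 TPM. Hk2, a hexokinase that traps glucose in the cell, was at 253 ± 16.4 TPM and Hk3 at 232 ± 7.77 TPM, and the libraries of these 2 overlapped. Taldo1, the transaldolase of the pentose phosphate pathway, was at 160.2 ± 10.5 TPM, the pyruvate kinase Pkm at 144 ± 3.08 TPM, and Pfkfb3, which makes the fructose bisphosphate that activates phosphofructokinase, at 135 ± 0.203 TPM. The control libraries of Taldo1, Pkm and Pfkfb3 did not overlap with each other.

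Several genes that are usually among the most abundant transcripts of a cell had low values here. Gapdh, the glyceraldehyde phosphate dehydrogenase, was at 32.5 ± 3.70 TPM in control microglia, Pgk1, a phosphoglycerate kinase, at 6.13 ± 0.540 TPM, and Pgam1, a phosphoglycerate mutase, at 5.13 ± 0.302 TPM. These genes have many near-identical copies: 82.5% of the 50-base stretches of the Gapdh transcript occur in the annotated transcripts of 222 other genes, 213 of them pseudogenes. The share was 72.2% for the enolase Eno1, 68.0% for Pgk1, 62.5% for the mitophagy gene Bnip3, 41.5% for Pgam1 and 34.4% for Pkm. It was 0.0% for 15 of the 34 genes, among them Hk2, Hk3, Slc16a3, Pgls, Pgd and Tkt. Reads that fit several places may not have been counted, so the levels of Gapdh, Eno1, Pgk1, Bnip3, Pgam1 and Pkm are uncertain and are read below only as differences between libraries.

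**Figure D1:**
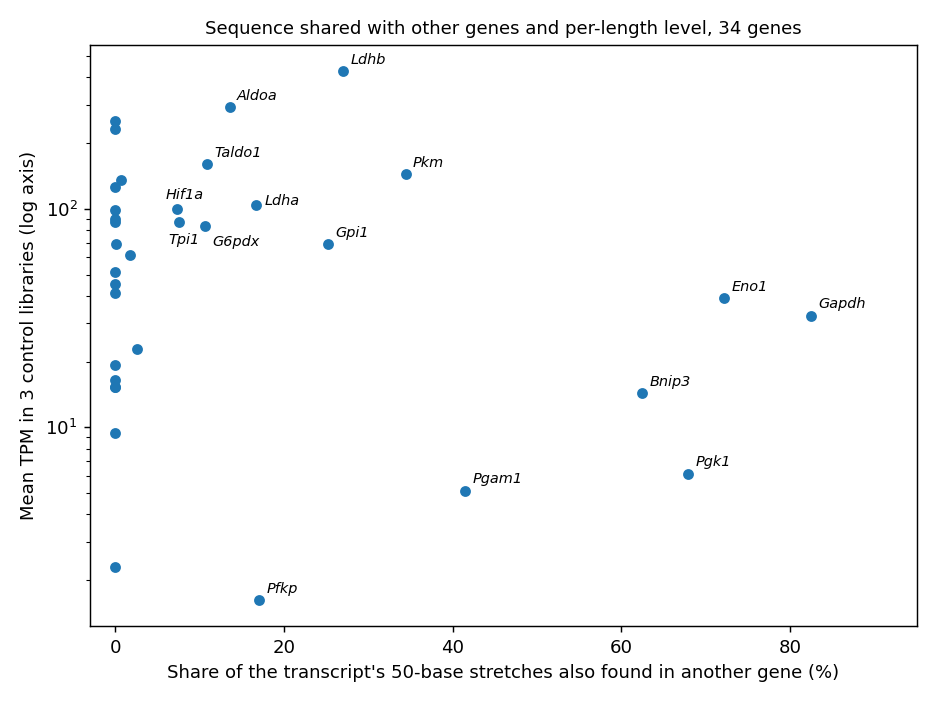
Mean TPM of each of the 34 genes in the 3 control libraries (vertical log axis) against the share of its transcript's 50-base stretches that are also found in the annotated transcripts of another gene (horizontal axis, %). Each point is a gene, labelled above 5%; Gapdh, with 82.5% shared, is at 32.5 TPM, below Hk2 and Hk3, which share 0.0%.

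Among phosphofructokinases and lactate dehydrogenases the same isoenzyme led in every group, and among hexokinases it did not. Among the hexokinases Hk2 held 49.7 ± 0.967% of the summed TPM in controls, 46.5 ± 3.83% in NMO CD11c- and 48.2% and 51.8% in the CD11c+ libraries (SD, n = 3). Hk1, the form typical of neurons and red cells, held 4.51 ± 0.128%, 3.35 ± 0.364% and 3.33 ± 0.744% in the same order (n = 2 for CD11c+ cells). Hk3 held 45.7 ± 1.01%, 50.2 ± 3.48% and 46.7 ± 1.81%, and led over Hk2 in the NMO CD11c- mean and in replicates 2 and 3 of that group, with 54.1% and 48.7%. Pfkl, the liver-type phosphofructokinase, held 79.3 ± 1.82%, 79.9 ± 0.568% and 82.3 ± 0.746% of the phosphofructokinase total, and Pfkp, the platelet type, 1.85 ± 0.460%, 2.19 ± 0.366% and 1.08 ± 0.220%. Ldhb, rather than the pyruvate-reducing form Ldha, held 80.3 ± 1.33%, 81.6 ± 1.79% and 79.9 ± 0.981% of lactate dehydrogenase. Both levels are uncertain, as 27.0% of the 50-base stretches of Ldhb are shared with a pseudogene and 16.65% of those of Ldha with 14 pseudogenes. Slc2a1 (GLUT1), the ubiquitous glucose transporter, held 95.5% and 92.7% of the sum of Slc2a1 and Slc2a3 in CD11c+ cells, 69.7% to 84.2% in the CD11c- cells of NMO mice and 82.8% to 89.6% in control cells, so that the CD11c+ libraries did not overlap with either of the other groups. With 2 and 3 libraries a group, no test of such a share was run.

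**Figure D2:**
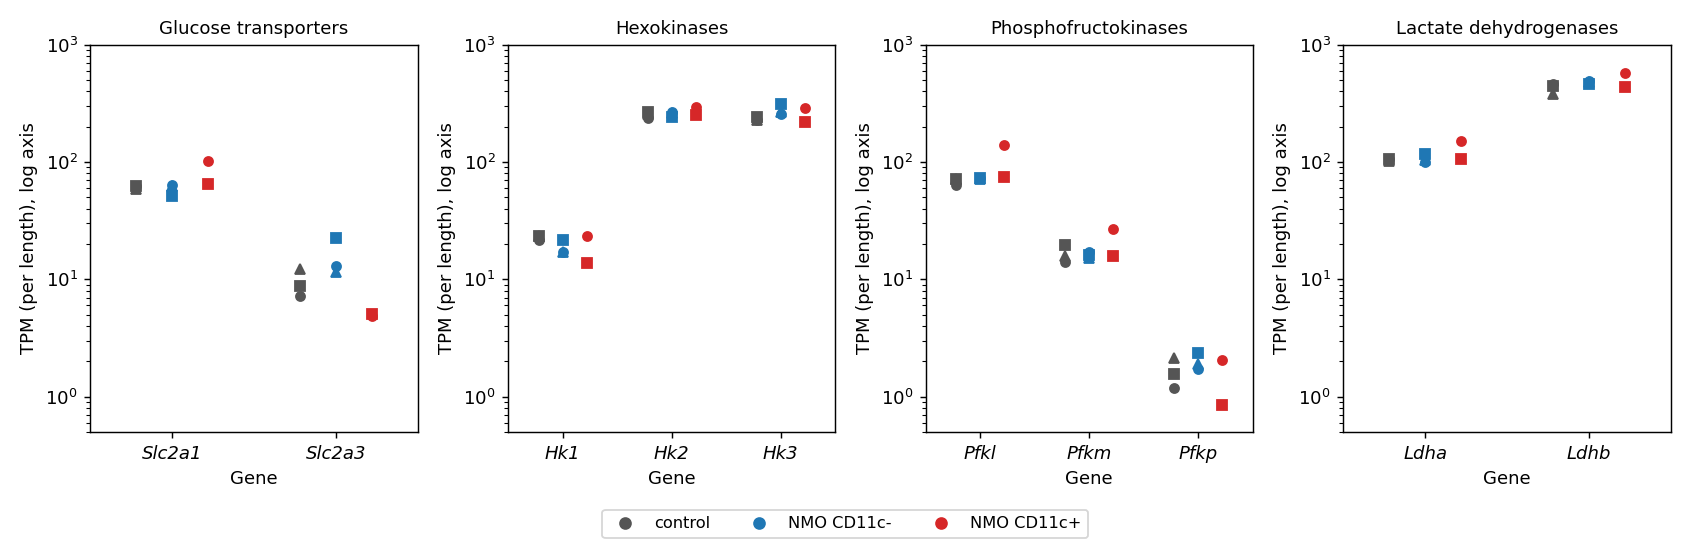
Per-length levels (TPM, log axis) of the glucose transporters, hexokinases, phosphofructokinases and lactate dehydrogenases in each library, coloured by group (marker shape is the replicate). Hk2 and Hk3 lie together, far above Hk1, Ldhb lies above Ldha in every library, and Slc2a3 is lowest in the 2 CD11c+ libraries.

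The comparison of CD11c+ microglia of NMO mice with control microglia asks how these genes stand when subset, disease and library numbering change together. Of the 34 genes 4 were higher and 0 lower in the CD11c+ cells (n = 2 against 3, edgeR quasi-likelihood test, Benjamini-Hochberg adjusted p under 0.05 over all tested genes): Pfkfb3, Pfkl, Slc16a3 and Pgls. This is 11.8% of the genes, where 6.85% of all tested genes were called higher and 3.36% lower. They belong to separate steps, namely the control of phosphofructokinase, the phosphofructokinase step itself, lactate export and the pentose phosphate pathway. Log2 differences are those of the fit, ± SE. The median log2 difference of the 34 was 0.19, against 0.01 over all tested genes. At an unadjusted p under 0.05, 11 were higher (32.4%, against 15.6% of all tested genes) and 1 lower (2.94%, against 13.2%). CPM did not overlap between the groups for 13 genes that were higher (38.2%, against 22.2% of all tested genes) and 3 that were lower (8.82%, against 21.5%).

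Pfkfb3 (chr2:11471433-11554077, minus strand, GRCm38) was at 349.9 and 407 CPM in the CD11c+ libraries, 311, 296 and 310.2 CPM in the NMO CD11c- libraries and 277, 261 and 253 CPM in the controls. The 3 groups were stacked without overlap, with the NMO CD11c- libraries between the others. Pfkfb3 rose 1.44-fold from control to CD11c+ cells (log2 difference 0.52 ± 0.11, adjusted p = 0.0185). With a single CD11c+ library left the log2 difference was 0.62 without replicate 1 and 0.40 without replicate 2. With all libraries and a correction for GC content and length it was 0.52 (adjusted p = 0.011).

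Pgls (chr8:71592176-71601092, plus strand), the lactonase of the oxidative pentose phosphate branch, was at 59.6 and 60.4 CPM in the CD11c+ libraries, 45.5, 61.1 and 53.6 CPM in the NMO CD11c- libraries and 40.5, 39.5 and 40.4 CPM in the controls. All 5 NMO libraries lay above all 3 controls. The rise from control to CD11c+ cells was 1.496-fold (log2 difference 0.58 ± 0.13, adjusted p = 0.0204). With CD11c+ replicate 2 as the only library of its arm the adjusted p was 0.0402. The call was lost after GC and length correction (log2 difference 0.38, adjusted p = 0.0746). Of the exon bases of Pgls 20.6% overlap Fam129c on the same strand, so reads there may be uncounted or shared.

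The other called genes leaned on a single CD11c+ library. Pfkl (chr10:77986947-78010083, minus strand) was at 253 CPM in CD11c+ replicate 1 and 139.9 CPM in replicate 2, against 124, 129 and 125 CPM in the NMO CD11c- libraries and 115, 121 and 119 CPM in the controls. Its log2 difference of 0.73 (± 0.19, adjusted p = 0.0417) became 0.24 (adjusted p = 0.1397) without replicate 1. Slc16a3 (chr11:120948480-120960868, plus strand), which encodes the lactate exporter MCT4, was at 99.1 and 74.3 CPM in the CD11c+ libraries, 69.9, 70.5 and 73.9 CPM in the NMO CD11c- libraries and 61.0, 63.7 and 60.9 CPM in the controls. Its log2 difference of 0.48 (± 0.12, adjusted p = 0.0361) became 0.26 (adjusted p = 0.128) without replicate 1. After correction for GC content and length both were still called, with log2 differences of 0.50 for Pfkl (adjusted p = 0.0252) and 0.27 for Slc16a3 (adjusted p = 0.0476). In both genes the second CD11c+ library was still above every control, by a smaller margin.

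All 4 calls were lost when any 1 of the 3 control libraries was left out (Pfkfb3 adjusted p 0.0547 to 0.0796, Pgls 0.0681 to 0.0785, with log2 differences of 0.49 to 0.56 and 0.57 to 0.59). Over all tested genes the share called higher fell as well, from 6.85% to 3.24% to 3.47%. Without CD11c+ replicate 2, 16 genes were higher and 2 lower, while 16.2% of all tested genes were then called higher and 16.5% lower.

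**Figure D3:**
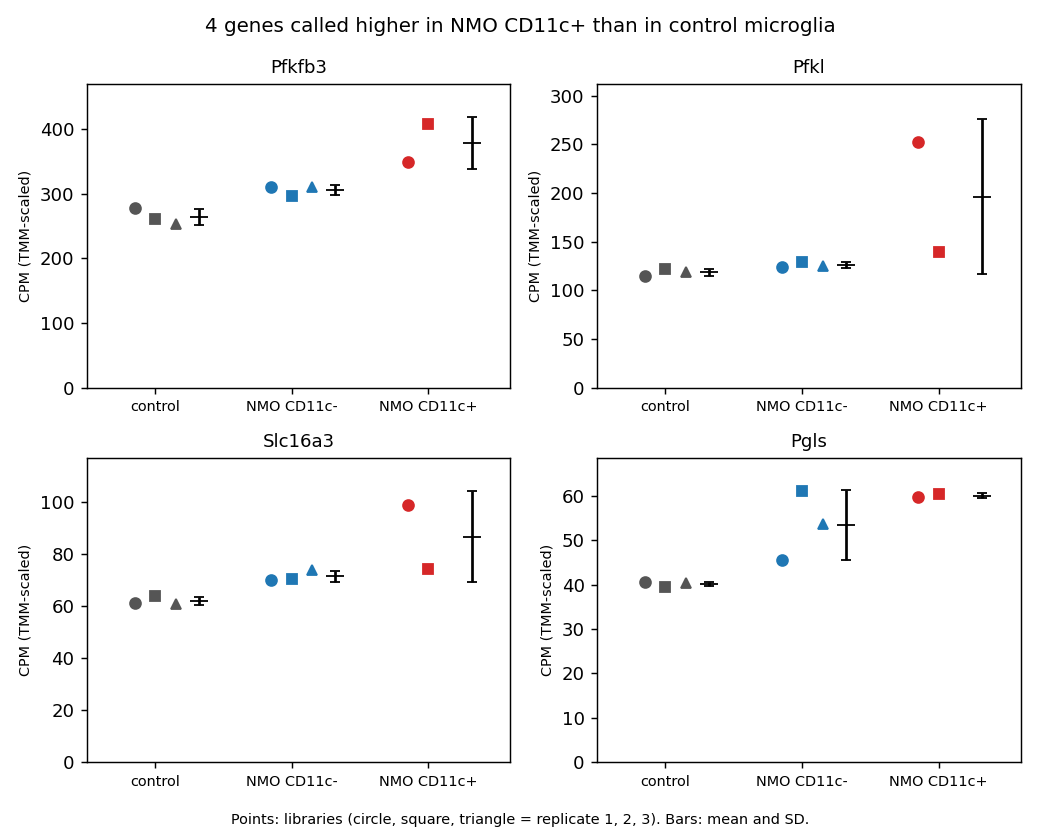
CPM of Pfkfb3, Pfkl, Slc16a3 and Pgls in each library by group, with the group mean and SD beside the points (n = 3, 3 and 2). The CD11c+ libraries lie above every control in all 4 panels; CD11c+ replicate 1 (circle) is far above replicate 2 (square) for Pfkl and Slc16a3.

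The regions just before transcription starts of these 4 genes are shown because they are the members called together, and because HIF binds a short core, ACGTG or GCGTG. Each sequence covers the 250 bases before a RefSeq transcription start (GRCm38.p6), 5′ to 3′ on the gene's strand, and capitals mark every match to ACGTG or GCGTG on either strand, so that CACGT and CACGC count as well. Pfkfb3 has 2 starts in the table. Such a window need not lie outside the gene. Those of Pfkl and Slc16a3 and the second of Pfkfb3 lie within the gene spans given above. The first of Pfkfb3 and that of Pgls reach into theirs.

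Pfkfb3, chr2:11553930-11554179, minus strand: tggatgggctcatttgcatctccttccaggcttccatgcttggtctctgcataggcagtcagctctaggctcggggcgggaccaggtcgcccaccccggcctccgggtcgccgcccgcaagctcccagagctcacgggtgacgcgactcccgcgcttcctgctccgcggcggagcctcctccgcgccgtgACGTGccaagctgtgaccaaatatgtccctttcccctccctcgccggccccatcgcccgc

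Pfkfb3, chr2:11502091-11502340, minus strand: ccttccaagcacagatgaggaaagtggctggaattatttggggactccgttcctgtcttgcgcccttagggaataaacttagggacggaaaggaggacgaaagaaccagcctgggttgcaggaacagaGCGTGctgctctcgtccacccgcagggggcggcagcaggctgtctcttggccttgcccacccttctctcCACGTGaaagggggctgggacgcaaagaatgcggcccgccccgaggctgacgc

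Pfkl, chr10:78009808-78010057, minus strand: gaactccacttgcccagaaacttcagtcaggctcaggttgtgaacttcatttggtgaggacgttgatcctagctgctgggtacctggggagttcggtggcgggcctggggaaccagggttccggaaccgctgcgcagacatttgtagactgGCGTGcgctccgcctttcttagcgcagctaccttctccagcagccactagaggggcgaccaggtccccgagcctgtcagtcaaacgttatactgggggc

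Slc16a3, chr11:120948817-120949066, plus strand: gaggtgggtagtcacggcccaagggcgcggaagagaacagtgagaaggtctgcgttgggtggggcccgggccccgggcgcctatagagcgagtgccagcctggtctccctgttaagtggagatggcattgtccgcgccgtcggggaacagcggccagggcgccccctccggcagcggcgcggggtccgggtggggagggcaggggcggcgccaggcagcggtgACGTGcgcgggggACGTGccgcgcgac

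Pgls, chr8:71591934-71592183, plus strand: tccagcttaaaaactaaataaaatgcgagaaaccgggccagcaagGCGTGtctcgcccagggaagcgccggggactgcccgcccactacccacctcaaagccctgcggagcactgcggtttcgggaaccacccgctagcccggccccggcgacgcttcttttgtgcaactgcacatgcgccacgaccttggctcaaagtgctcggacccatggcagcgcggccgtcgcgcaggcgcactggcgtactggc

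Slc16a3 holds 2 matches, the nearer 14 bases before the start. The upstream Pfkfb3 window holds 1 match, 60 bases before its start, and the other holds 3, of which 2 overlap in CACGTG, read once on each strand. Pfkl and Pgls hold 1 match each, 99 and 205 bases before the start. A match was found for 31 of the 33 members in the table (93.9%), 61.6% of the tested genes in it and 41.5% of all its genes, with median GC contents of the windows of 60.8%, 59.6% and 52.4%. The members without a match were Gpi1 and Tpi1, and Slc2a3 has no entry. The 4 called genes thus share the match with nearly all the other members, and a match is a string of letters, not a measured binding site.

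Among the genes of glucose entry, Slc2a1 did not pass in CD11c+ cells against control. It was at 98.5 and 64.0 CPM in the CD11c+ libraries, 56.1, 48.2 and 56.6 CPM in the NMO CD11c- libraries and 59.8, 56.5 and 51.5 CPM in the controls (log2 difference 0.53 ± 0.17, adjusted p = 0.0697, and 0.19, adjusted p = 0.406, without CD11c+ replicate 1). The CD11c+ libraries were the highest 2 of the 8. Gpi1, the glucose phosphate isomerase, had a log2 difference of 0.72 (± 0.23, adjusted p = 0.0714) and 0.26 without CD11c+ replicate 1. It was at 241 and 138 CPM in the CD11c+ libraries, 142, 204 and 134 CPM in the NMO CD11c- libraries and 112 to 116 CPM in the controls. Every NMO library lay above every control. Both Slc2a1 and Gpi1 were called higher by DESeq2, which called 6 members higher (and 7.54% of all genes it tested), and by the edgeR exact test, which called 7 (and 9.17%). Hk2 and Hk3 had log2 differences of 0.21 (± 0.11) and 0.24 (± 0.14) and did not pass. For the lower steps, Pkm (log2 difference 0.41 ± 0.17), Ldha (0.39 ± 0.15) and Ldhb (0.33 ± 0.14) did not pass either, with adjusted p of 0.148, 0.114 and 0.153. Without CD11c+ replicate 1 these differences were 0.09, 0.14 and 0.16. Gapdh was at 32.3 and 43.2 CPM in the CD11c+ libraries and 29.2 to 37.9 CPM in the controls, with overlapping ranges.

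Of the 4 hypoxia genes 0 were called in CD11c+ cells against control by the edgeR quasi-likelihood test. Over all tested genes 6.85% were called higher and 3.36% lower. At an unadjusted p under 0.05, 1 was higher, Egln3 (25%, against 15.6% of all tested genes). Hif1a was at 111 and 194 CPM in the CD11c+ libraries, on either side of the controls at 155, 144 and 155 CPM and the NMO CD11c- libraries at 163, 139 and 169 CPM. Its log2 difference against control was 0.01 (± 0.20), and its transcript GC content of 41.3% was the lowest of the set. Egln3, a prolyl hydroxylase that is itself a known HIF target, had few counts: 21 and 20 in the CD11c+ libraries, 19, 30 and 13 in the NMO CD11c- libraries and 15, 15 and 10 in the larger control libraries. In CPM all 5 NMO libraries (1.91 to 4.52) lay above the controls (1.31 to 1.83). The log2 differences were 1.29 for CD11c+ cells (SE 0.40, adjusted p = 0.0697) and 0.95 for NMO CD11c- cells (SE 0.37, adjusted p = 0.192), neither of which passed. The edgeR exact test called Egln3 in CD11c+ cells (adjusted p = 0.0291) and DESeq2 did not (adjusted p = 0.105). Egln1, the main prolyl hydroxylase, was at 44.7 and 36.6 CPM in CD11c+ cells against 43.3 to 51.3 CPM in controls (log2 difference -0.23 ± 0.14). The kinases Pdk1 and Pdk3, which hold back pyruvate dehydrogenase, had log2 differences of -0.07 (± 0.15) and -0.16 (± 0.20).

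The comparison of CD11c- microglia of NMO mice with control microglia asks what differs outside the CD11c+ subset, where disease and library numbering change together. No member was called by the edgeR quasi-likelihood test, where 3% of all tested genes were called higher and 0.717% lower. DESeq2 called 0 members as well (4.31% of all genes higher), and the edgeR exact test called 1, Pgls, as higher (5.74% of all genes). At an unadjusted p under 0.05, 5 members were higher (14.7%, against 11.7% of all tested genes) and 1 lower (2.94%, against 7.02%). The groups did not overlap for 11 higher members (32.4%, against 17.6%) and 1 lower (2.94%, against 16.1%). Of the 34 genes 25 had a positive log2 difference (73.5%, against 49.4% of all tested genes), and their median was 0.11. Pgls came closest to a call, with a log2 difference of 0.41 (± 0.11, adjusted p = 0.0811). It was called without CD11c+ replicate 1 or 2, each of which is outside this comparison but enters the shared estimate of spread.

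The 6 pentose phosphate genes had positive values in this comparison with all libraries in the fit. The edgeR quasi-likelihood test called 0 of them, where 3% of all tested genes were called higher. At an unadjusted p under 0.05, 2 were higher (33.3%, against 11.7% of all tested genes). Besides Pgls they were Pgd, which makes NADPH (log2 difference 0.29 ± 0.12), G6pdx, the entry enzyme (0.27 ± 0.18), the transketolase Tkt (0.41 ± 0.21), Taldo1 (0.24 ± 0.16) and Rpia, the ribose isomerase (0.05 ± 0.14). Without NMO CD11c- replicate 2 the differences were 0.31 for Pgls, 0.17 for Pgd, 0.09 for Tkt and 0.05 for Taldo1, and turned to -0.01 for G6pdx and -0.09 for Rpia. Tkt was at 307 CPM in NMO CD11c- replicate 2, against 179.7 and 170.4 CPM in replicates 1 and 3 and 159 to 167 CPM in the controls. G6pdx was at 108 CPM in that library, against 69.9 and 62.0 CPM in the others and 60.2 to 73.2 CPM in the controls. That library also had the highest neutrophil marker sum, at 11532 CPM against 3280 and 2226 CPM in replicates 1 and 3. The sum of 8 monocyte markers was highest there too, at 993 CPM against 293 and 202 CPM. It was 82.8 to 158 CPM in the controls and 54.9 and 44.9 CPM in the CD11c+ libraries. The part of neutrophils or monocytes in the pentose phosphate values was not tested.

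**Figure D4:**
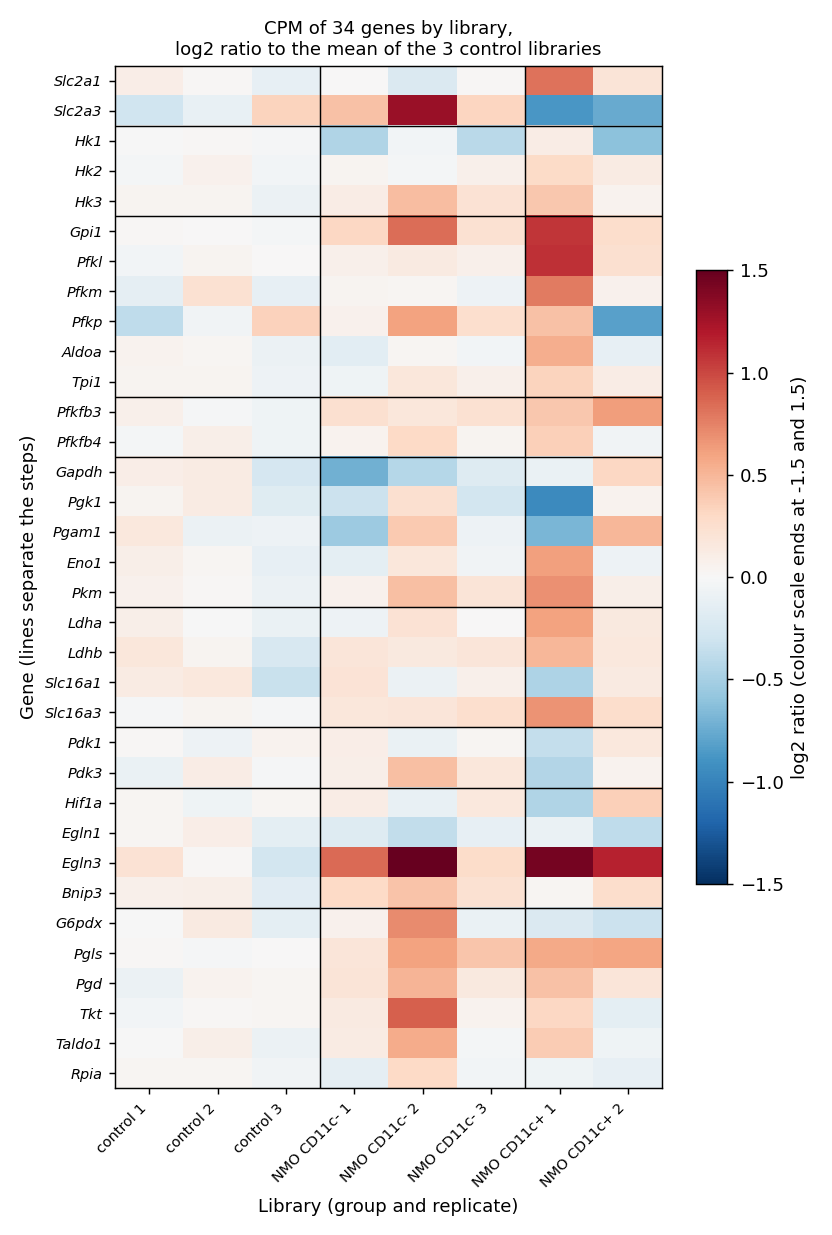
Log2 ratio of CPM to the mean of the 3 control libraries for the 34 genes (rows, in the order of the pathway, lines between steps) in the 8 libraries (columns by group); the colour scale ends at -1.5 and 1.5. NMO CD11c- replicate 2 stands out for Slc2a3, Tkt and G6pdx, CD11c+ replicate 1 for Gpi1, Pfkl and Pfkm, and Gpi1 and Egln3 are above the controls in all 5 NMO libraries.

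Slc2a3 (GLUT3), a high-affinity glucose transporter that neutrophils carry, had nearly the same order of libraries as the neutrophil markers. It was at 43.2 CPM in NMO CD11c- replicate 2 and 23.8 and 21.9 CPM in replicates 1 and 3, at 14.3, 16.3 and 22.1 CPM in the controls and at 9.60 and 10.4 CPM in the CD11c+ libraries. The CD11c+ libraries, where the neutrophil markers were near 0, were the lowest of the 8. The part of neutrophil or monocyte RNA in these values was not tested. In bulk RNA, fewer cells of a type and less RNA per cell cannot be told apart.

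The comparison of CD11c+ with CD11c- microglia of NMO mice asks how the subsets differ within the disease. The edgeR quasi-likelihood test called 0 members, where 0.1% of all tested genes were called higher and 0.183% lower. DESeq2 and the edgeR exact test each called 1 member, Slc2a3, as lower, beside 1.26% and 1.5% of all genes. At an unadjusted p under 0.05, 6 members were higher (17.6%, against 7.9% of all tested genes) and 2 lower (5.88%, against 7.54%). The groups did not overlap for 7 higher members (20.6%, against 13.8%) and 3 lower (8.82%, against 14.2%). Slc2a3 had the largest difference of the set, a log2 difference of -1.56 (± 0.33, adjusted p = 0.0772), with neutrophil markers at 17.2 and 21.8 CPM against 2226 to 11532 CPM beside it. Without NMO CD11c- replicate 2, the library with the most neutrophil transcripts, it was -1.19 (adjusted p = 0.0716). The other gene that was lower at an unadjusted p under 0.05 was G6pdx, at 57.4 and 53.4 CPM against 62.0 to 108 CPM (log2 difference -0.53 ± 0.21, adjusted p = 0.286).

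In the higher direction were Slc2a1 (log2 difference 0.60 ± 0.17), Pfkl (0.63 ± 0.19), Pfkfb3 (0.31 ± 0.11), Gapdh (0.55 ± 0.19), Ldha (0.33 ± 0.15) and Slc16a3 (0.28 ± 0.12), with adjusted p from 0.176 to 0.321. The CD11c+ libraries lay above all 3 CD11c- libraries for each of them except Ldha, where CD11c+ replicate 2 was at 98.3 CPM and CD11c- replicate 2 at 103 CPM. Without CD11c+ replicate 1 the differences were 0.25 for Slc2a1, 0.15 for Pfkl, 0.09 for Ldha and 0.06 for Slc16a3, against 0.41 for Pfkfb3 and 0.74 for Gapdh. Leaving out CD11c+ replicate 2 changed this picture most. Aldoa, Eno1, Gpi1, Ldha, Pfkl, Pfkm, Pkm, Slc16a3 and Slc2a1 were then called higher and Slc2a3, Hif1a and Pdk1 lower, while 11.5% of all tested genes were called higher and 12.7% lower. With GC and length correction as well, 3 were called higher (3.75% of all tested genes) and 0 lower. Without CD11c+ replicate 1 that arm also held 1 library, and only the differences given above are read.

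**Figure D5:**
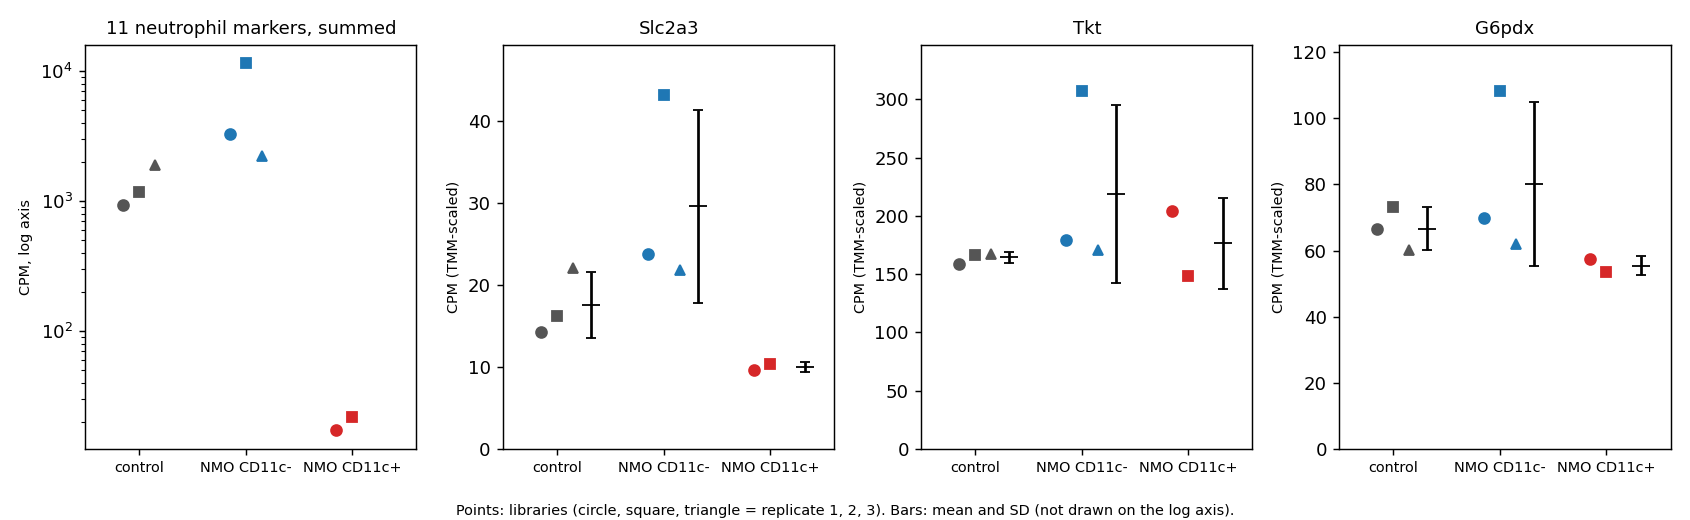
Summed CPM of 11 neutrophil markers (log axis) and CPM of Slc2a3, Tkt and G6pdx in each library by group; black bars are the mean and SD of the group. NMO CD11c- replicate 2 (blue square) is highest in all 4 panels, and the 2 CD11c+ libraries are lowest for the markers, Slc2a3 and G6pdx.

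The wider pathway was followed with 79 other genes of glycolysis, pyruvate use, the pentose phosphate pathway and the HIF response, of which 64 were tested. In NMO CD11c- against control cells 2 were higher and 2 lower (of 64, beside 3% and 0.717% of all tested genes). In NMO CD11c+ against control cells 3 were higher and 3 lower (4.69% each, against 6.85% and 3.36%). Between the NMO subsets edgeR quasi-likelihood called 0, with 3 higher and 5 lower at an unadjusted p under 0.05 (4.69% and 7.81%, against 7.9% and 7.54%). Both comparisons with control use the same 3 control libraries.

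The largest change was in Slc2a6 (GLUT6), a facilitative hexose transporter of leukocytes. It was at 28.0 and 26.8 CPM in the CD11c+ libraries and 20.1, 25.9 and 25.3 CPM in the NMO CD11c- libraries, against 5.75, 7.07 and 4.32 CPM in the controls. Slc2a6 rose 4.12-fold in NMO CD11c- cells (log2 difference 2.04 ± 0.19, adjusted p = 0.000339) and 4.75-fold in CD11c+ cells (2.25 ± 0.21, adjusted p = 0.000205). Both calls held without each library in turn, the CD11c+ arm then being 1 library in 2 of the fits.

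Slc2a5 (GLUT5), a fructose transporter known as a microglial marker, fell, as did P2ry12, Cx3cr1, Siglech and Gpr34 among the microglial markers in CD11c+ cells (log2 differences of -1.01, -0.71, -0.69 and -0.84). Of the 10 markers 4 were called lower there, while Csf1r (-0.004) and Sall1 (0.07) stayed about level. Slc2a5 was at 323 and 289 CPM in the CD11c+ libraries, 361, 299 and 361 CPM in the NMO CD11c- libraries and 545, 518 and 459 CPM in the controls. The libraries of both NMO groups lay below every control, while the NMO groups overlapped with each other. Per length it outweighed Slc2a1 in every group, with 577 ± 27.0 TPM in control, 385 ± 48.0 TPM in NMO CD11c- and 325 ± 32.1 TPM in CD11c+ cells. Slc2a5 fell by 0.58 on the log2 scale in NMO CD11c- cells (SE 0.12, adjusted p = 0.0278) and by 0.73 in CD11c+ cells (SE 0.14, adjusted p = 0.00983). The second call held without each library in turn, with the same limit for the CD11c+ arm, and the first was lost without any 1 of the NMO CD11c- or control libraries (adjusted p up to 0.153).

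The remaining calls were smaller. Eno3, the muscle-type enolase, rose in CD11c+ cells (52.1 and 44.0 against 26.8 to 28.6 CPM, log2 difference 0.78 ± 0.14, adjusted p = 0.00887) and in NMO CD11c- cells (34.4 to 46.1 CPM, 0.55 ± 0.13, adjusted p = 0.0455). Only the former call held without each library in turn, again with that limit. P4ha1, a collagen prolyl hydroxylase and HIF target, fell in NMO CD11c- cells from 311 to 343 CPM in the controls to 218 to 261 CPM (log2 difference -0.44 ± 0.10, adjusted p = 0.0468). In CD11c+ cells against control, Mif, a cytokine and HIF target, rose (7.15 and 9.16 against 2.88 to 4.52 CPM, log2 difference 1.16 ± 0.27, adjusted p = 0.0252). Prps2, which makes phosphoribosyl pyrophosphate from ribose, fell (42.3 and 56.7 against 74.3 to 82.8 CPM, log2 difference -0.64 ± 0.15, adjusted p = 0.0282), and so did Bnip3l, a mitophagy receptor (43.7 and 71.2 against 87.8 to 89.3 CPM, log2 difference -0.62 ± 0.17, adjusted p = 0.045). Each of these 4 calls was lost on leaving out single libraries, with adjusted p up to 0.205 for P4ha1, 0.0917 for Mif, 0.0997 for Prps2 and 0.118 for Bnip3l. Without CD11c+ replicate 1 the difference was -0.32 for Bnip3l and -0.45 for Prps2. Of the 22 tested HIF targets outside the 34 genes 1 was thus higher and 1 lower in CD11c+ cells (4.55% each, against 6.85% and 3.36% of all tested genes), and their median log2 difference was 0.03.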

How the data were processed

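Gene counts were used as deposited by the authors, 1 table per library of 41388 Ensembl identifiers. STAR 2.3.11, HTSeq 0.5.4, edgeR 3.12.0 and GRCm38 are named in the submitters' processing notes. Whether counting used strand, and with which annotation, is not given in the sources used here. Symbols, lengths and GC content came from GENCODE M21 (40254 identifiers matched; the other 1134 held 0.155% of counts). Genes passed filterByExpr by group (minimum count 10; 12002 genes), libraries were scaled by TMM, and all 8 entered 1 edgeR 4.0.16 quasi-likelihood fit in R 4.3.3 (residual degrees of freedom 5), each comparison being a contrast of group means. Benjamini-Hochberg adjustment ran over all tested genes, and adjusted p under 0.05 was a call. Log2 differences are fitted log2 fold changes, with SE. The fit was tested on simulated data with known changes. Planted 1.5-fold changes were recovered in 10.6% of cases between the NMO subsets. In CD11c- and in CD11c+ cells against control the shares were 25.3% and 23.4%. For 2-fold changes they were 52.8%, 70.3% and 63.6% in the same order. False calls made up 7.14%, 4.35% and 9.09% of all calls. A gene that was not called may thus still differ. The members and lists were chosen with earlier results of these data known. Every member could be named, and of the other pathway genes those called. Alternatives were other scalings, filters, DESeq2 1.42.0, the exact test, only the groups compared, a loess offset for GC content and length, and each library left out; the offset together with a left-out CD11c+ library was chosen after seeing the data. Promoter sequences are from RefSeq (GRCm38.p6). For 37 of the 46 member windows, the 50 bases after the start, which are not part of the window, were found in a GENCODE transcript of the gene.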

Additional observations from a re-analysis of the deposited data

How the results depend on the processing

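No paired analysis was possible because the numbers given to replicates only name libraries and no label ties libraries to a shared mouse. In NMO CD11c+ against control cells the 4 higher members became 2 with library size alone as scaling (5.87% of all genes tested), 7 without a low-count filter (4.87%; and 1 lower, 5.11%), 7 with the edgeR exact test (9.17%) and 1 with only the 2 groups compared (3.93%). Leaving out single libraries gave 0 to 16 higher and 0 to 2 lower. With GC and length correction and without CD11c+ replicate 1 there were 2 higher and 1 lower. In NMO CD11c- against control cells 2 members were called higher without a filter (3.97% of all genes tested), where the main fit called 0. The exact test called 1 (5.74%), as did the fit of only the 2 groups compared (6.9%). Leaving out single libraries gave 0 to 1 higher. Between the NMO subsets there were 2 higher and 2 lower without a filter (1.25% and 2.09% of all genes tested). DESeq2 called 1 lower (1.26%), as did the exact test (1.5%). Leaving out single libraries gave 0 to 9 higher and 0 to 3 lower. The share of all tested genes called moved too when 1 CD11c- or control library was left out. In CD11c+ against control cells it was 3.24% to 6.77% higher and 0.857% to 3.53% lower. In CD11c- against control cells it was 1.03% to 2.74% and 0.151% to 0.344%. Between the subsets it was 0.0251% to 0.143% and 0.0587% to 0.571%. The cause of these shifts was not tested. Hif1a in CD11c+ against control cells ranged from -0.45 (adjusted p = 0.0215, without CD11c+ replicate 2) to 0.36 (without replicate 1). Over single genes and all settings but the GC correction with a left-out library, 1958 values kept their side of the threshold, 63 calls were lost, 57 were gained and 1 reversed. With the longest transcript as length, Ldhb held 72.9% of lactate dehydrogenase in controls and Hk1 7.80% of hexokinase. The median of the 34 genes in CD11c+ against control cells was 0.37 without CD11c+ replicate 2. Low depth limits Egln3, Pgk1, Pgam1 and Pfkp most, at under 10 CPM in every library.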
